A study of Mus musculus with 4 samples.

Results

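The CA2 and CA3 field markers described here are 7 genes, Amigo2, Rgs14, Pcp4, Map3k15 and Necab2 for field CA2 and Bok and Iyd for field CA3, chosen by symbol from 22609 genes counted in mouse hippocampus. All 7 were found in the count tables and all 7 had enough reads to be tested. RNA was sequenced from ovariectomized female mice 24 h after both common carotid arteries had been closed for 20 min, a model of global cerebral ischemia, with ovariectomy 1 week before the occlusion. The 2 FLOX-control libraries come from mice with the floxed aromatase gene (Cyp19a1) and the 2 GFAP-ARO-KO libraries from mice in which Cre, driven by the GFAP promoter and described by the labels as limited to astrocytes, deletes that gene. The operation, the ischemia and the reperfusion time are shared by all 4 libraries, no uninjured group is among them, and the age of the mice is not in the labels.

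The hippocampus is built from the dentate gyrus and the pyramidal fields CA3, CA2 and CA1, which excitation crosses in turn. CA2 is a small field between CA3 and CA1 that is known for its part in social memory and for withstanding ischemia better than CA1, the field that global ischemia damages most. Its pyramidal cells are recognised by a few transcripts, several of which encode proteins that limit calcium and G protein signaling at the synapse. CA3 cells receive the mossy fibers of the dentate gyrus and excite one another. In RNA from whole hippocampus, fewer cells of a field and less RNA per cell cannot be told apart, and a read does not show which cell it came from.

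The libraries held 27930696 to 34878375 reads assigned to genes, and a count of 0 allowed up to 0.0860 to 0.107 CPM (read counts scaled to library size; 3 reads were taken as the limit, counting error only). Cyp19a1, the deleted gene, had 3 and 2 reads in the FLOX-control libraries and 1 and 9 in those labelled GFAP-ARO-KO, too few to check the genotype labels. Markers of the hippocampal fields were present in all 4 libraries, with 9 CA1 markers summing to 1039 to 1282 CPM and 9 dentate granule cell markers to 429 to 627 CPM. The second knockout library stood apart in 8 markers of the meninges, the membranes around the brain, which summed to 2147 CPM there and to 351 to 486 CPM in the other libraries. The labels do not say that the libraries of a group came from separate animals, so p-values measure the spread between these libraries, which may be technical.

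Of the 5 more abundant markers, Rgs14, Pcp4, Necab2 and Bok did not pass the test, whereas Amigo2 was 2.02-fold lower in the knockout and the sparse transcripts Map3k15 and Iyd were 2.11-fold and 3.74-fold higher. By edgeR's quasi-likelihood test with Benjamini-Hochberg adjustment over 15011 genes and a threshold of 0.05, 2 of the 7 members rose, 1 fell and 4 did not pass. Over all tested genes 20.4% passed, 9.39% higher and 11.0% lower, and a count of 3 among 7 members is too small to be set apart from that background. The median log2 fold change was 0.07 over the members and near 0 (-0.000809) over all tested genes. Both knockout libraries lay above both controls for 3 members (Map3k15, Necab2 and Iyd) and below them for 1 (Amigo2), against 32.0% and 32.8% of all tested genes. The 5 CA2 members went both ways, with 1 higher and 1 lower, and of the 2 CA3 members 1 was higher.

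**Figure D1:**
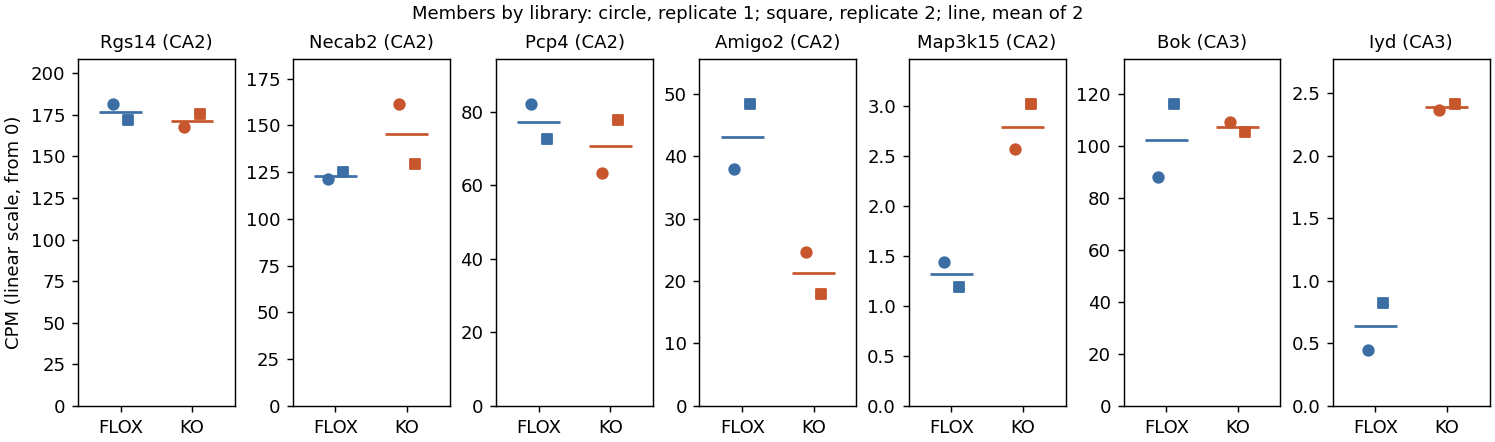
Level of each marker in CPM (vertical axis, linear, starting at 0) in the 2 FLOX-control libraries (FLOX, blue) and the 2 GFAP-ARO-KO libraries (KO, orange), with a line at the mean of each group and the field in brackets. Amigo2 is lower in both knockout libraries (24.6 and 17.9 CPM against 37.9 and 48.3), Map3k15 and Iyd are higher in both, and the groups overlap for Rgs14, Pcp4 and Bok.

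Levels between genes were compared per kilobase of exon (RPKM, computed from CPM with GENCODE exon lengths). Pcp4 was highest, at a mean of 116 RPKM over the 4 libraries, followed by Bok (73.2), Rgs14 (69.9), Necab2 (64.0) and Amigo2 (11.2). Iyd (0.932 RPKM) and Map3k15 (0.472 RPKM) were far scarcer and lay at the 18.1st and 11.4th percentile of the tested genes, whereas the 4 abundant markers lay between the 94.4th and the 97.7th. The ranges of Bok (61.7 to 81.2 RPKM), Rgs14 (67.3 to 72.8 RPKM) and Necab2 (57.8 to 76.9 RPKM) overlapped, so their order is not set by these libraries. With the longest transcript as the length, Rgs14 stood at 73.9 RPKM, above Bok.

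Rgs14, on chromosome 13 (55471093 to 55486048, plus strand, mm9, 15 exons), encodes a regulator of G protein signaling that restrains synaptic plasticity in CA2 pyramidal cells. It was at 181 and 172 CPM in the controls and at 168 and 175 CPM in the knockouts. The 4 values lay within a narrow band and the groups overlapped. The log2 fold change was -0.04 ± 0.09 (SE; adjusted p = 0.766), and the 95% interval of the ratio of knockout to control ran from 0.835 to 1.13. Ratios within that interval are compatible with these libraries, so a small change in either direction is not excluded.

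Pcp4, on chromosome 16 (96689213 to 96747400, plus strand, 3 exons), encodes PEP-19, a small protein that tunes calmodulin. It was at 82.1 and 72.7 CPM in the controls and at 63.5 and 77.9 CPM in the knockouts, so the groups overlapped and the first knockout library was lowest. Its log2 fold change was -0.13 ± 0.13 (adjusted p = 0.499; 95% interval of the ratio 0.741 to 1.12). In the annotation Pcp4 overlaps Igsf5 on the same strand over 57975 bases, with 243 exonic bases in common. Igsf5 had 5 to 15 reads per library. How reads in the shared exonic bases were counted is not given, so that low count does not show whether Pcp4 lost reads there.

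Necab2, on chromosome 8 (121970619 to 121996540, plus strand, 13 exons), encodes a neuronal calcium-binding protein that binds adenosine and glutamate receptors. It was at 121 and 125 CPM in the controls and at 161 and 129 CPM in the knockouts. Both knockout values were above both controls, the second by little. The log2 fold change of 0.24 ± 0.12 did not pass (adjusted p = 0.195; 95% interval of the ratio 0.970 to 1.44). The size rested on the first knockout library: it was 0.07 without that library and 0.40 without the second, where it passed (adjusted p = 0.0295).

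Amigo2, on chromosome 15 (97074505 to 97077718, minus strand, 2 exons), encodes a leucine-rich repeat adhesion protein of CA2 and neighboring CA3 cells that is also made by other cells, reactive astrocytes among them. It was at 37.9 and 48.3 CPM in the controls and at 24.6 and 17.9 CPM in the knockouts, without overlap. It fell by 1.02 ± 0.19 on the log2 scale (adjusted p = 0.0127; 95% interval of the ratio 0.365 to 0.671). The call was lost when the second control was left out (-0.84 with an adjusted p of 0.0725), and was kept without any 1 of the other 3 libraries. Amigo2 and Fam113b, a gene on the opposite strand, share 58 exonic bases, and no label says whether the counting used strand. Fam113b rose, from 4.33 and 3.55 CPM to 7.63 and 6.17 CPM (log2 fold change 0.82 ± 0.22, adjusted p = 0.0361).

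Markers of other cell types also differed between the groups, and the libraries do not show which of these cells contribute Amigo2 reads. Of 10 microglia markers 9 fell, and their summed level went from 519 and 580 CPM in the controls to 276 and 288 CPM in the knockouts. Of 10 astrocyte markers 3 fell and 2 rose (6178 and 6504 against 5293 and 5539 CPM). On the log2 scale Gfap, Aqp4 and Sox9 fell by 0.94, 1.40 and 0.50, and Gjb6 and Fgfr3 rose by 1.11 and 0.48. Gfap alone went from 1378 and 1435 CPM to 761 and 709 CPM, a large part of the fall of this sum. Among 12 genes of the A1-type reactive astrocyte list, which itself includes Amigo2, 2 fell and 2 rose (227 and 243 against 315 and 360 CPM). That sum is dominated by 1 gene, Fkbp5, which went from 116 and 124 CPM in the controls to 227 and 233 CPM in the knockouts. The sum therefore does not describe the list as a whole. Of the 8 endothelial markers 2 rose and 1 fell (175 and 185 against 187 and 244 CPM). With 1 library left out 8 to 9 microglia markers fell. Without the first knockout library 6 A1-type and 4 endothelial markers rose, and without either control 1 astrocyte and 1 A1-type marker rose and 0 or 1 A1-type markers fell. Without the second knockout library 3 A1-type markers rose and 3 fell, and 2 endothelial markers fell. Amigo2 fell by 1.27 on the log2 scale without the first knockout library and fell by 0.80 without the second. The part of these cells in the fall of Amigo2 was not tested.

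Map3k15, on chromosome X (156426365 to 156561283, plus strand, 29 exons), encodes a kinase at the head of a MAP kinase cascade. It had 48 and 39 reads in the control libraries, against 90 and 85 in the knockouts, or 1.43 and 1.19 CPM against 2.56 and 3.01 CPM. The groups did not overlap, but every value rested on fewer than 100 reads. It rose by 1.07 ± 0.28 on the log2 scale (adjusted p = 0.0333; 95% interval of the ratio 1.35 to 3.29). This is the least stable of the 3 calls: the adjusted p was 0.134 without the first control, 0.218 without the second, 0.0623 without the second knockout library and 0.0806 with DESeq2. Map3k15 shares 603 exonic bases with Pdha1, an abundant gene of the opposite strand with 9672 to 10696 reads per library. Pdha1 itself changed by 0.04 ± 0.10 on the log2 scale and did not pass (adjusted p = 0.800).

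Bok, on chromosome 1 (95582271 to 95592339, plus strand, 5 exons), encodes a BCL-2 family protein that promotes cell death and is abundant in CA3. It was at 88.4 and 116 CPM in the controls and at 110 and 106 CPM in the knockouts. Both knockout values lay between the controls. The log2 fold change was 0.07 ± 0.14 (adjusted p = 0.744; 95% interval of the ratio 0.841 to 1.31), and it was -0.11 without the first control and 0.28 without the second.

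Iyd, on chromosome 10 (6791664 to 6806301, minus strand in mm9, 5 exons), encodes iodotyrosine deiodinase, which recovers iodide in the thyroid. It had 15 and 27 reads in the control libraries, against 83 and 68 in the knockouts, or 0.448 and 0.826 CPM against 2.36 and 2.41 CPM. The knockout libraries were close to each other, 1.02-fold apart, while the controls differed 1.84-fold. Iyd rose by 1.90 ± 0.35 on the log2 scale (adjusted p = 0.0116; 95% interval of the ratio 2.12 to 6.59). Without the first control, the lower one, the log2 fold change was 1.53 and did not pass (adjusted p = 0.0924), and it passed without any 1 of the other 3. No other annotated gene overlaps Iyd.

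**Figure D2:**
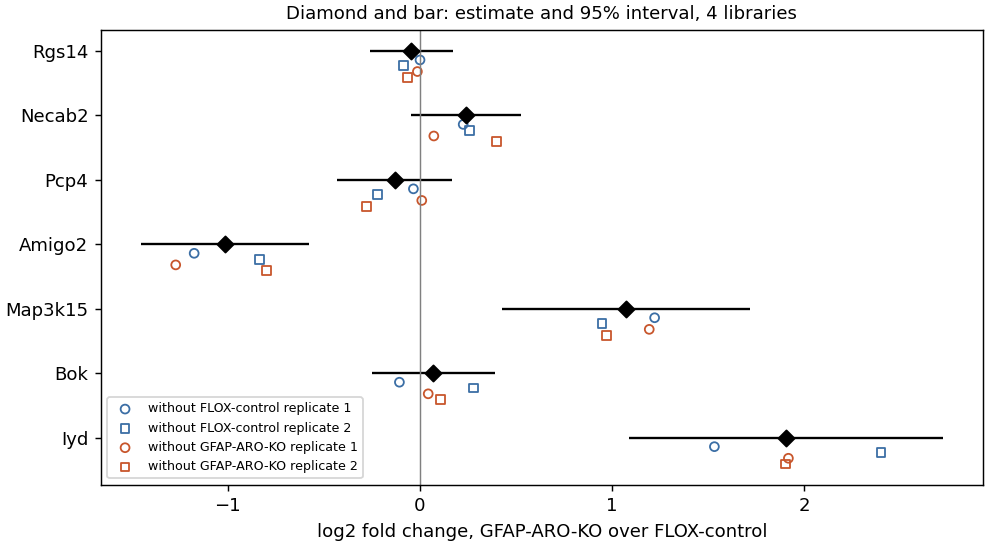
Log2 fold change of each marker in GFAP-ARO-KO over FLOX-control (horizontal axis), with black diamonds for the estimate from 4 libraries, bars for its 95% interval and open symbols for the estimate with 1 library left out (blue, a control; orange, a knockout; circle, replicate 1; square, replicate 2). The open symbols stay below 0 for Amigo2 and above 0 for Map3k15 and Iyd, and lie on both sides of 0 for Rgs14, Pcp4 and Bok.

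Ratios of raw reads within a library need no scaling between libraries. Per 1000 Rgs14 reads there were 209 and 281 Amigo2 reads in the controls, against 147 and 102 in the knockouts. Per 1000 Rgs14 reads the Map3k15 reads numbered 7.91 and 6.93 in the controls, against 15.3 and 17.2 in the knockouts. Pcp4, at 453 and 422 reads per 1000 of Rgs14 against 379 and 445, overlapped between the groups. Necab2 stood at 668 and 726 reads per 1000 of Rgs14 in the controls, against 962 and 738 in the knockouts, without overlap but with the second knockout library close to the controls. Of the 2 CA3 markers, Iyd stood at 5.07 and 7.11 reads per 1000 of Bok in the controls and at 21.6 and 22.9 in the knockouts. Markers of 1 field thus changed unequally; such a ratio does not show which of its 2 genes changed.

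**Figure D3:**
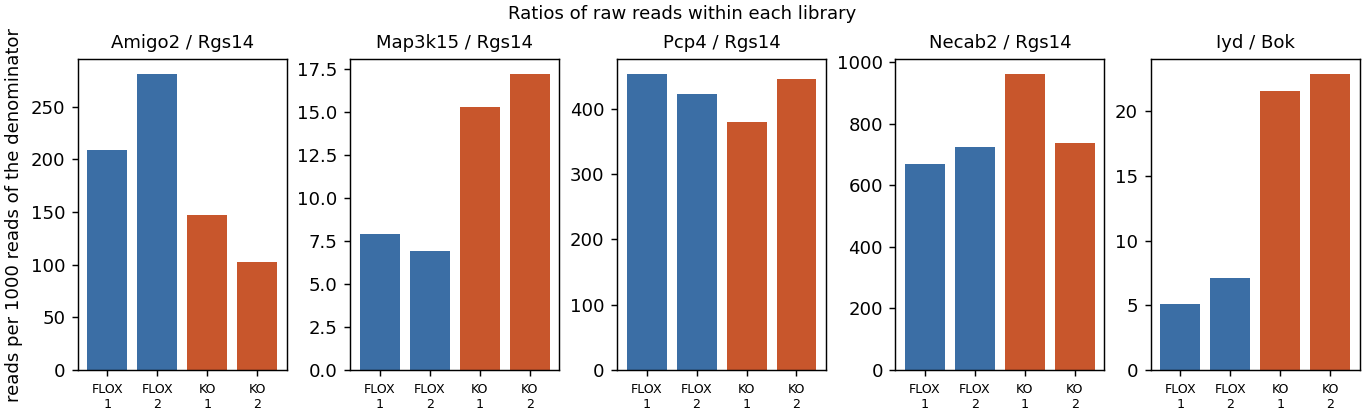
Reads of 5 markers per 1000 reads of an abundant marker of the same field (Rgs14 for CA2, Bok for CA3), 1 bar per library, blue for FLOX-control and orange for GFAP-ARO-KO. The Amigo2 bars are lower in both knockouts (147 and 102 against 209 and 281), and the Map3k15 and Iyd bars are higher.

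The stretches before the start sites of Amigo2, which fell, and Iyd, which rose and has the larger fold change of the 2 that did, are printed to show how far their base composition differs. They are the 250 bases before the RefSeq start, from build GRCm38.p6, written 5′ to 3′ on the gene's strand, and 5 of the 7 members matched an entry of the RefSeq promoter table. Capitals mark a TATA box (TATAAA). The Amigo2 stretch is chr15:97247288-97247537 (minus strand), and the Iyd stretch is chr10:3540024-3540273 (plus strand in this build).
Amigo2: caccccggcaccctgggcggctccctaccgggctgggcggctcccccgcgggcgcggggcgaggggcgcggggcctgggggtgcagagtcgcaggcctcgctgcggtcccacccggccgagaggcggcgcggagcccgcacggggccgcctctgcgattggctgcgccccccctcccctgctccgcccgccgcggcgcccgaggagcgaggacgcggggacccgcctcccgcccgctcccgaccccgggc
Iyd: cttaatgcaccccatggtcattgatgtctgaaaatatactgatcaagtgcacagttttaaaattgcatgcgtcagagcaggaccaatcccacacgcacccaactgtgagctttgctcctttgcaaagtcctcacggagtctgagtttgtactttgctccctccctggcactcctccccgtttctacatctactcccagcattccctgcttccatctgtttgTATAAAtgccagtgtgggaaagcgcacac
The Amigo2 stretch holds 84.0% G and C and 38 CG dinucleotides, and the Iyd stretch 48.4% and 5.

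Windows of 300 bases (250 before and 50 after the start) were compared with all 32841 windows in the table. The Amigo2 window had 83.3% G and C, at the 99.7th percentile, while those of Necab2 (66.7%), Bok (56.3%), Iyd (49.0%) and Pcp4 (48.7%) lay nearer the median of 52.7%. The observed over expected CpG ratio was 0.883 for Amigo2, 0.673 for Bok, 0.511 for Necab2, 0.353 for Iyd and 0.339 for Pcp4, against a median of 0.384. On both strands 4 motifs were searched. TATAAA was found in Iyd alone of the 5, starting 29 bases before the start site, and in 13.6% of all windows. The AP-1 site TGANTCA was found in Necab2 alone, 169 bases before the start, and in 7.81% of all windows. The STAT site TTCNNNGAA (8.30% of all windows) and the cyclic AMP response element TGACGTCA (1.79%) were in none of the 5. A match describes the letters and not a bound site.

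**Figure D4:**
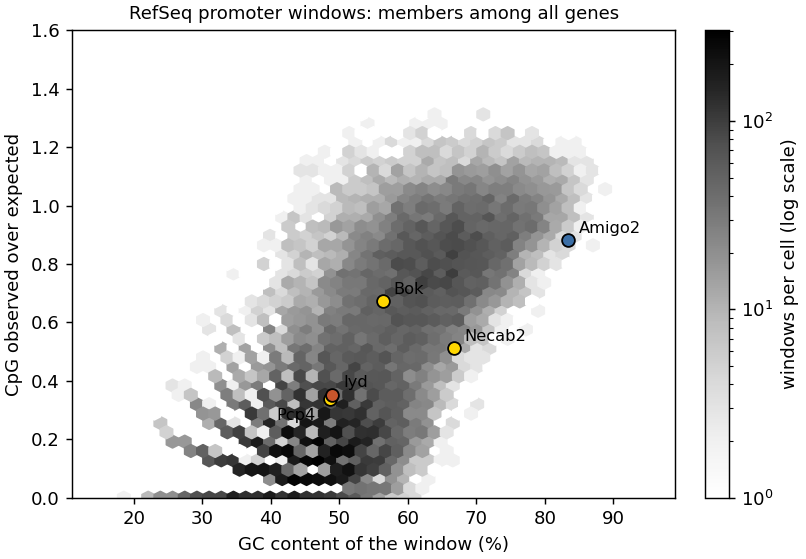
G and C content in % (horizontal axis) and observed over expected CpG ratio (vertical axis) of the promoter windows of 5 markers (blue, Amigo2; orange, Iyd; yellow, the others) over all 32841 RefSeq windows (grey cells, darker for more windows on a log scale). Amigo2 sits at 83.3% G and C, while Iyd (49.0%) and Pcp4 (48.7%) lie close together near the middle of all windows.

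Other markers of the same fields are given beside the 20.4% of all tested genes that passed; no difference from the 7 members was tested. Of 12 further CA2 markers 2 rose, 1 fell and 9 did not pass, with a median log2 fold change of -0.12. Ptpn5, which encodes the synaptic phosphatase STEP and was the most abundant of them, fell from 266 and 243 CPM to 157 and 147 CPM (log2 fold change -0.74 ± 0.10, adjusted p = 0.00421). Cacng5, an AMPA receptor auxiliary subunit, rose from 17.1 and 20.0 CPM to 27.6 and 28.4 CPM (0.60 ± 0.13, adjusted p = 0.0212). Ntf3, which encodes neurotrophin 3, rose from 4.03 and 5.54 CPM to 7.46 and 8.87 CPM (0.77 ± 0.22, adjusted p = 0.0456). Avpr1b, the vasopressin receptor of CA2, stood at 1.37 and 1.13 CPM in the controls, against 0.570 and 0.603 CPM in the knockouts, and did not pass (adjusted p = 0.0669). Without either control library 0 of the 12 rose, without the second knockout library 1 rose and 2 fell, and without robust estimation 1 rose.

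Of 11 further CA3 markers in the files 1 rose, 0 fell and 10 did not pass, with a median log2 fold change of 0.07. The one that rose was Plagl1, a zinc finger transcription factor gene, from 22.2 and 26.1 CPM to 34.8 and 35.3 CPM (0.54 ± 0.13, adjusted p = 0.0255). Without either control 0 rose, and without the first knockout library 2 did. Spock1, the most abundant, was at 297 and 372 CPM in the controls, against 389 and 363 CPM in the knockouts (adjusted p = 0.361). Grik4, the kainate receptor subunit of CA3, was at 67.8 and 70.9 CPM against 70.4 and 58.2 CPM (adjusted p = 0.550). Coch was at 4.42, 4.07 and 3.11 CPM in 3 libraries and at 17.5 CPM in the second knockout library, the one high in meningeal markers. Coch did not pass (adjusted p = 0.388).

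Markers of the adjoining fields are given for comparison; no difference between lists was tested. Of 9 CA1 markers 2 fell and 0 rose (median -0.17), among them Ndst4, a heparan sulfate sulfotransferase gene (-1.72 ± 0.13), and 1 rose without the first control. Mpped1, the most abundant CA1 marker, was at 338 and 350 CPM in the controls, against 322 and 331 CPM in the knockouts (-0.07 ± 0.09, adjusted p = 0.581). Of 9 dentate granule cell markers 5 rose and 0 fell (median 0.60). The smallest p was that of Dsp, which encodes desmoplakin (1.13 ± 0.14, adjusted p = 0.00365). When the first control was left out 3 of these markers rose, and when the second was left out 2 did. Of 6 markers of hilar mossy cells 2 fell and 0 rose (median -0.80), with 1 falling under DESeq2. The 2 were sparse. Csf2rb2 (-1.46 ± 0.25) went from 4.42 and 4.59 CPM to 1.4 and 1.9 CPM. Glp1r (-1.61 ± 0.42) went from 1.105 and 1.805 CPM to 0.484 and 0.461 CPM. These calls changed when a library was left out. Ajap1, the most abundant, went from 54 and 51 CPM to 65 and 62 CPM and did not pass (0.28 ± 0.10, adjusted p = 0.0844). The list summed to 112.5 and 115.7 CPM in the controls, against 122.9 and 116.3 CPM in the knockouts, so its sum did not fall. Most of that sum is Ajap1 and Calb2 (48.2 and 54.1 against 52.8 and 49.3 CPM), so it says little about the sparse markers. Drd2 and Cda also lay below both controls in both knockouts, without passing (adjusted p = 0.139 and 0.0877).

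**Figure D5:**
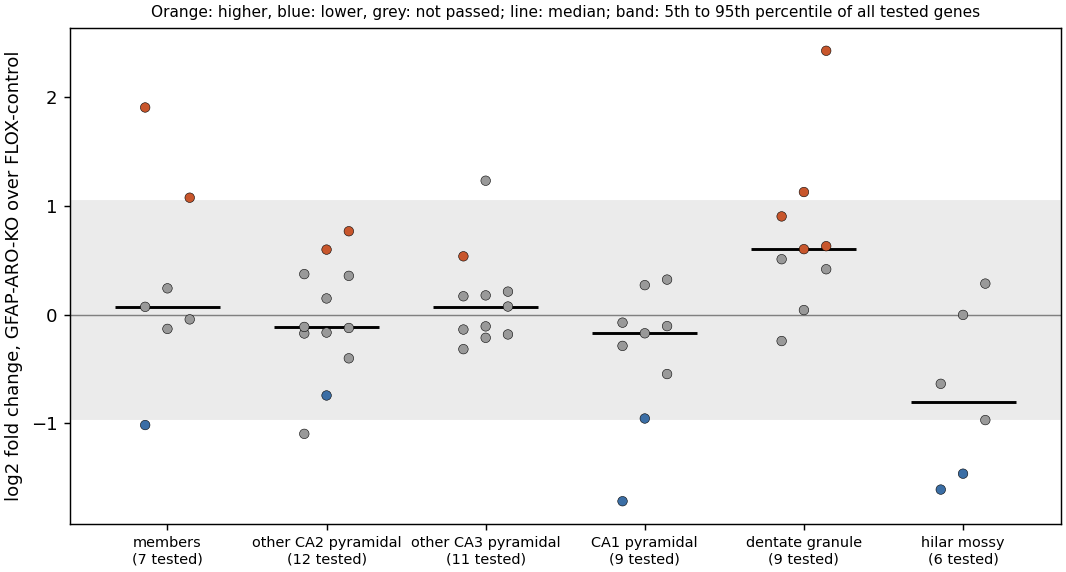
Log2 fold change in GFAP-ARO-KO over FLOX-control (vertical axis) of every tested gene of the 7 markers and of 5 further lists of hippocampal fields, 1 point per gene (orange, higher; blue, lower; grey, not passed), with a line at each median and a grey band from the 5th to the 95th percentile of all tested genes. The CA2 and CA3 lists centre near 0 (medians -0.12 and 0.07), the dentate list lies higher (0.60) and the mossy cell list lower (-0.80). The summed CPM of the mossy cell list, most of it Calb2 and Ajap1, did not fall (112.5 and 115.7 in the controls, 122.9 and 116.3 in the knockouts).

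General neuronal markers and neighboring tissues were measured beside these results, since Pcp4 and Necab2 are also made in striatum, thalamus and cortex. Of 10 excitatory neuron markers 2 fell, of 10 inhibitory 2 fell and of 10 pan-neuronal 5 fell, and 0 rose in these 3 lists. The smallest p of the excitatory list was that of Slc17a6, which went from 117 and 111 CPM in the controls to 11.1 and 19.7 CPM in the knockouts. Its log2 fold change was -2.90 ± 0.25 (adjusted p = 0.00177). That size was not shared by the list, of which 8 did not pass. Camk2a, the most abundant, changed by -0.18 ± 0.09 (adjusted p = 0.188). Slc17a7 went from 2122 and 2025 CPM to 1810 and 1607 CPM (-0.28 ± 0.09, adjusted p = 0.0722). Which cells or tissue the Slc17a6 reads came from was not tested. Of 8 striatum markers 2 rose, with sums of 214 and 182 against 272 and 275 CPM (controls first). Of 7 tested thalamus and habenula markers 1 rose and 1 fell (57.5 and 63.1 against 69.6 and 84.1 CPM), and of 8 neocortex markers 1 rose and 2 fell (345 and 268 against 273 and 288 CPM). Of 6 tested choroid plexus and ependyma markers 2 rose (42.5 and 48.1 against 59.5 and 73.0 CPM). The 2 were Ttr, the transthyretin gene (6.84 and 4.47 against 13.2 and 30.4 CPM), and Clic6 (0.568 and 0.734 against 1.99 and 1.45 CPM). The other 2 genes of that list, Otx2 and Kcnj13, had too few reads to be tested. The part of these tissues in the values of Pcp4, Necab2 or Iyd was not tested. Most of these counts were smaller without a control library: without either one, 1 excitatory, 0 inhibitory and 1 pan-neuronal marker fell, 0 thalamic and 0 choroid markers rose, and 0 or 1 neocortical and 0 or 1 thalamic markers fell. Without the second control 1 striatum marker rose, and without the second knockout library 2 pan-neuronal and 1 inhibitory marker fell and 0 thalamic markers passed. Without the first knockout library 0 thalamic markers fell. Of 10 oligodendrocyte lineage markers 5 fell, of 7 mural cell markers 1 rose, of 8 meningeal markers 0 passed, and of 10 immediate-early genes, which neuronal activity induces, 3 fell. Without either control 3 oligodendrocyte markers fell and 0 mural markers rose, without the second knockout library 3 mural markers rose, and without the first 8 meningeal and 4 mural markers rose. The number of immediate-early genes that fell ran from 1 without either knockout library to 7 without the second control.

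Among 186 tested genes of all lists, the gene whose pattern over the 4 libraries lay nearest to each member was found by Euclidean distance of mean-centred log2 CPM, as a description. Amigo2 lay nearest to Csf1r, a microglial receptor gene (distance 0.302). Map3k15 lay nearest to Ppp1r1b of the striatum list (0.112), and Iyd to Clic6 of the choroid plexus list (0.717), the loosest match. Necab2 lay nearest to Vcan of the CA2 list (0.173), Rgs14 to Gad1 (0.0772), Pcp4 to Abcc9 (0.0954) and Bok to Reln (0.0325). Vcan was thus the only nearest gene that belongs to a CA2 or CA3 list.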

How the data were processed

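The deposited files hold raw HTSeq read counts per gene symbol for 4 libraries of total hippocampal RNA, read as 50 bp single ends, as the labels' protocols state. The authors used bcl2fastq, TopHat2 2.0.8b, the mm9 build and HTSeq, per the submitters' processing notes. Neither the strand setting nor the annotation behind the counts is given in the sources used here. Rows that name no gene (45.2% to 47.3% of entries) were left out.

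Titles gave the groups. filterByExpr kept genes (minimum count 10, minimum total 15), and the 15011 kept were tested with edgeR 4.0.16 in R 4.3.3 (TMM, glmQLFit with legacy=FALSE and robust estimation, glmQLFTest), with p-values Benjamini-Hochberg adjusted with a threshold of 0.05. SE is the absolute log2 fold change over the square root of F, and 95% intervals use the test's degrees of freedom. The steps were tested on simulated counts. The 20 marker lists hold 6 to 12 genes each; Map2 and Lamp5 were matched by an older symbol, and Hs3st4 was not matched. mm9 positions and exon lengths come from GENCODE vM1 on NCBIM37, the assembly of mm9, and promoter windows from RefSeq (GRCm38.p6).

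The rule for named genes takes the 7 members, the list members with the smallest p or the highest level, and the nearest pattern to each member. Lists outside the hippocampal fields are given mostly by counts, and only some of their genes under the rule are named. Cacng5, Ntf3, Avpr1b, Grik4, Coch, Glp1r, Ttr, Clic6, Otx2, Kcnj13, Igsf5, Fam113b and Pdha1 were named after their values were seen. Members and lists were chosen with earlier results of these data known. Alternatives were RLE and upper-quartile scaling, 2 other filters, legacy and non-robust estimation, limma-voom (limma 3.58.1), DESeq2 1.42.0, leaving each library out, a replicate block, and the longest transcript as gene length.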

Additional observations from a re-analysis of the deposited data

How the results depend on the processing

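Across 13 alternatives Amigo2 stayed lower (log2 fold change from -1.27 to -0.80) and passed in 12, Iyd stayed higher (1.53 to 2.40) and passed in 12, and Map3k15 stayed higher (0.95 to 1.22) and passed in 9. With DESeq2 the number of members that rose was 1. With 1 library left out, 0 to 2 members rose and 0 to 1 fell, while over all genes 296 to 2388 rose and 517 to 2433 fell. The fewest calls came without the second control (296 higher and 517 lower), followed by the first control (350 and 551), and the most without the first knockout library (2388 and 2433); a group left with 1 library is assumed to vary like the other. Signs reversed only among members that did not pass: with 1 library left out, Rgs14 ranged from -0.0837 to 0.00116, Pcp4 from -0.275 to 0.0103 and Bok from -0.11 to 0.28. The cause was not tested. With the replicate number as a block 2 members rose and 1 fell, and 1449 genes rose and 1745 fell; same-numbered libraries share only a number (correlation of deviations -0.0057). The median log2 fold change of all genes was 0.00443 with RLE and 0.0236 with upper-quartile scaling. Depth limits Map3k15 and Iyd, with 15 to 90 reads per library.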
